A study of Mus musculus with 12 samples.

Results

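The change in gene expression of the mouse testis between 3 months (3M) and 18 months (18M) of age was measured over 18068 genes, out of 24336 genes with an annotated or related transcript in the table. The members were fixed by 1 rule: the reads of every transcript that matched a reference transcript, lay within one, shared a splice junction with one or overlapped one in its exons were summed per gene, and genes with enough reads in 3 libraries were tested. The comparison used 6 of the 12 libraries of the series, 3 mice at 3M and 3 at 18M. The other 6 libraries, from mice of 6 months (6M) and 12 months (12M), were not fitted and are given as levels only. All mice were wild-type C57BL/6 males, with no treatment named, and each library was taken as 1 mouse. The RNA came from bulk testis tissue, so that any cell type of the organ could contribute. Ribosomal RNA was removed and the paired-end libraries carried no strand information. The study's methods leave it unclear whether the mice of an age came from 1 litter, and the p-values measure the spread between these mice.

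The testis holds germ cells inside the seminiferous tubules, supported by Sertoli cells, and Leydig cells in the interstitium between the tubules. Leydig cells make testosterone from cholesterol: Star carries cholesterol into the mitochondrion, Cyp11a1 cuts its side chain, and Hsd3b, Cyp17a1 and Hsd17b3 enzymes finish the hormone in the endoplasmic reticulum. The tissue kallikreins are a cluster of closely related serine protease genes, and in the mouse testis several members are known as Leydig cell transcripts.

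The libraries held 49798298 to 68057885 estimated reads in genes, and 94.7% to 95.0% of all estimated reads of a library lay in genes. Replicates of an age correlated at 0.9955 to 0.9961 (Pearson's r on log2 CPM, over genes, which are not independent replicates). Levels are given in CPM, the count of a gene scaled to the size of its library after normalization by the trimmed mean of M-values. The tissue label was checked with markers: the protamine gene Prm2, which packs sperm DNA, stood at 5574 ± 455 CPM at 3M and 6102 ± 631 CPM at 18M (mean ± SD, n = 3). Summed markers of the epididymis, which lies next to the testis, came to between 5.56 and 7.29 CPM, and Adam7, Lcn5 and Svs2 were at 0 in all 6 libraries.

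Of the 18068 genes, 12 (0.0664%) passed an adjusted p of 0.05 in edgeR's quasi-likelihood test, 4 higher (0.0221%) and 8 lower (0.0443%) at 18M. The genes that fell were Klk1b27, Klk1b24, Klk1b21, Cyp17a1, Lrch4, Xpnpep3, Ankrd10 and Ubl5. The genes that rose were Arf6, Fetub, Akr1c12 and Gm20605, the last of which is a noncoding locus that was named after its values were seen. Lrch4 and Gm20605 overlap, and their summed level did not change. Arf6 was not called once a further transcript of its locus was counted, as described below. In 9 of the 12 (0.0498% of all genes tested) the log2 fold change was at least 1 in size, and in 12 of 12 the ages did not overlap. Without adjustment, 2461 genes (13.6%) had a p of 0.05 or less, and in 3712 genes (20.5%) the libraries of the ages did not overlap. DESeq2, run as an alternative on the same counts, called 264 genes (1.6%), 103 higher (0.625%) and 161 lower (0.976%), among them the same 12. The number called by edgeR was 25 without the first or without the second mouse of 18M, 23 without the third mouse of 3M and 18 without the first mouse of 3M. The count thus depended on the test and on single libraries, while the median log2 fold change of all genes tested was −0.002.

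**Figure D1:**
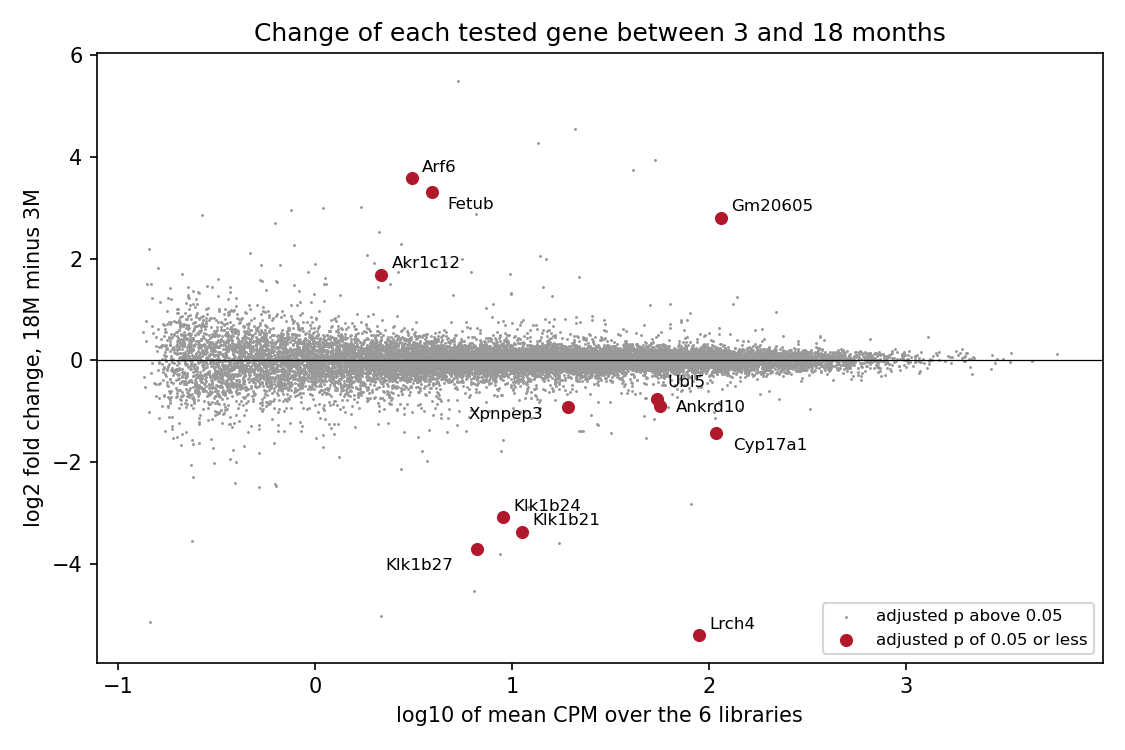
Each point is 1 of the 18068 tested genes, with the log10 of its mean CPM over the 6 libraries on the horizontal axis and its log2 fold change (18M minus 3M) on the vertical axis. The 12 genes with an adjusted p of 0.05 or less are red and named, and most of the others lie close to 0.

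The tissue kallikreins held the largest group of called genes. Of the 14 members, 12 had enough reads to be tested, and 3 fell (Klk1b27, Klk1b24 and Klk1b21). The 14 genes lie side by side on chromosome 7 (mm10), from 43950666 to 44229622. RefSeq's GRCm38.p6 promoter windows, which run from 250 bases before to 50 bases after each gene's start, were matched for 14 of the 14. Those of the 3 genes that fell are printed with that of Klk1b26, the nearest tested neighbour on the 5′ side of Klk1b27, whose ages overlapped, so that the likeness of the family can be read. Capitals mark AAGGTCA, a half-site of the type that NR5A1 binds, or AGAACA, a half-site of the androgen receptor type, on either strand.
Klk1b27, chr7:44052040-44052339, plus strand: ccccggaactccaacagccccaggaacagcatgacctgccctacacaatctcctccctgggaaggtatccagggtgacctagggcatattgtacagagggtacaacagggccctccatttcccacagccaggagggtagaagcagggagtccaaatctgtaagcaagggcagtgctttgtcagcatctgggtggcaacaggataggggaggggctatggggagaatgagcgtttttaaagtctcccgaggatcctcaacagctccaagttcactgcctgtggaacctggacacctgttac
Klk1b21, chr7:44102042-44102341, plus strand: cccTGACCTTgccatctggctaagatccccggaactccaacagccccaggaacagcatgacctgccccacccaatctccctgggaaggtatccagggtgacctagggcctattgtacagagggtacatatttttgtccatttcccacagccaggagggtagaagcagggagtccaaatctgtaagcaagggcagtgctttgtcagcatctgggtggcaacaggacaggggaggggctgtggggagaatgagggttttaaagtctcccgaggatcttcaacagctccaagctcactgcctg
Klk1b24, chr7:44187986-44188285, plus strand: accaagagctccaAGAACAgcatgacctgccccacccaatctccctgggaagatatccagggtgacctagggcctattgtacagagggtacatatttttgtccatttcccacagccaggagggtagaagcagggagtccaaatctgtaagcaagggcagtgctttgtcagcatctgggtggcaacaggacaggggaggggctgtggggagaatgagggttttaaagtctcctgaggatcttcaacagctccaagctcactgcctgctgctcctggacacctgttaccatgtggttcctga
Klk1b26, chr7:44012428-44012727, plus strand: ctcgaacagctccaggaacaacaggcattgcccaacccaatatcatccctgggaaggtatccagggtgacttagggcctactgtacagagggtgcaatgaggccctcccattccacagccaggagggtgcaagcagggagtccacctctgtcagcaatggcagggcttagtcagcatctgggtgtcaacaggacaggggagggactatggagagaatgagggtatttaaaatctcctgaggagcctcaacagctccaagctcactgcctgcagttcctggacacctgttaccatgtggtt
The promoters of Klk1b27, Klk1b21 and Klk1b24 were 91.3% to 97.7% identical in their aligned bases, against 77.6% to 92.8% in the 88 other pairs of the family. The promoter of Klk1b22 was 80.7% to 82.1% identical to these 3, and that of Klk1b26 was 85.6% to 86.7%. Klk1b22 was lower at 18M without overlap (log2 fold change −5.03) but did not pass, so likeness to the called promoters did not follow the size of the fall. AAGGTCA was found in 4.72% of all 32851 promoter windows and, in this family, in those of Klk1b21 and Klk1. AGAACA was found in 18.97% of all windows and, in this family, in those of Klk1b24 and Klk1b3. Klk1b27, which has neither sequence in its window, fell as well.

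Klk1b27 was at 13.1, 10.9 and 12.8 CPM in the 3M libraries and at 1.27, 0.826 and 0.725 CPM in the 18M libraries. All 3 young mice lay far above all 3 old mice. The log2 fold change was −3.71 ± 0.21 (SE), a level 13.1-fold lower, with an adjusted p of 0.00187 in edgeR. Klk1b24 was at 16.4, 13.0 and 18.96 CPM at 3M and at 2.07, 2.03 and 1.61 CPM at 18M, a log2 fold change of −3.09 ± 0.17 (adjusted p = 0.00187). Klk1b21 was at 21.8, 19.7 and 20.0 CPM at 3M and at 2.87, 2.03 and 1.09 CPM at 18M, a log2 fold change of −3.37 ± 0.30 (adjusted p = 0.0127). In both genes the ages were again wide apart. Klk1b21 lost its call without the second mouse of 3M (adjusted p = 0.0524), with a robust dispersion (0.119) and with exact matches to reference transcripts only (0.507). Klk1b27 and Klk1b24 were called in all 18 alternatives.

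The called genes were neighbours, together with the 2 genes between them that did not pass. From the 5′ end of the cluster the order of the run was Klk1b27, Klk1b21, Klk1b22, Klk1b16 and Klk1b24, over 140162 bases. Klk1b22 was at 4.27, 2.81 and 5.49 CPM at 3M and at 0.130, 0.282 and 0 CPM at 18M, a difference that did not pass (adjusted p = 0.0815) although the ages did not overlap. Klk1b16 had a log2 fold change of −1.26 ± 0.39 (adjusted p = 0.294), and its ages overlapped. The summed level of these 5 genes, a run chosen after its values were seen, was 57.8, 47.3 and 59.7 CPM at 3M and 7.29, 5.88 and 4.07 CPM at 18M, or 10.5% of the 3M mean. The 7 other tested kallikreins together were at 84.4, 72.0 and 77.6 CPM at 3M and at 75.5, 84.3 and 90.5 CPM at 18M, ranges that overlap.

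On the 5′ side of the run, Klk1b8 was the most abundant member at 47.6 ± 4.61 CPM at 3M and 50.2 ± 6.85 CPM at 18M. This level sums 4 transcripts, and the study lists an annotated mRNA of Klk1b8 among those that decreased from 3M to 18M. The level of the gene thus does not stand for each of its transcripts. Klk1b26 was at 10.03 ± 0.540 and 9.90 ± 0.124 CPM, a log2 fold change of −0.02 ± 0.08. Klk1b9, known as an epidermal growth factor-binding protein gene, was at 11.2 ± 1.19 and 13.1 ± 0.0855 CPM (log2 fold change 0.22 ± 0.09, adjusted p = 0.365). On the 3′ side, Klk1b3, which codes for the gamma subunit of nerve growth factor, was at 2.40 ± 0.126 and 3.49 ± 0.0994 CPM (0.54 ± 0.11, adjusted p = 0.247). It and Klk1b9 were the 2 members higher at 18M without overlap, as were 9.78% of all genes tested. Klk1, Klk1b4 and Klk1b5 differed by 0.11 ± 0.11, −0.16 ± 0.40 and −0.41 ± 0.36 on the log2 scale, with overlapping ages. Over the 12 tested members the median log2 fold change was −0.28, against −0.002 over all genes tested. It was −0.14 without the second mouse of 18M and −0.49 without the third. These genes are near copies of one another, so the division of reads between them in the deposited counts is uncertain, and exons of Klk1b24 overlap those of Klk1b3. The sum over the family, which does not depend on how reads were divided within it, was 119 to 143 CPM at 3M and 83.0 to 94.6 CPM at 18M, without overlap.

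**Figure D2:**
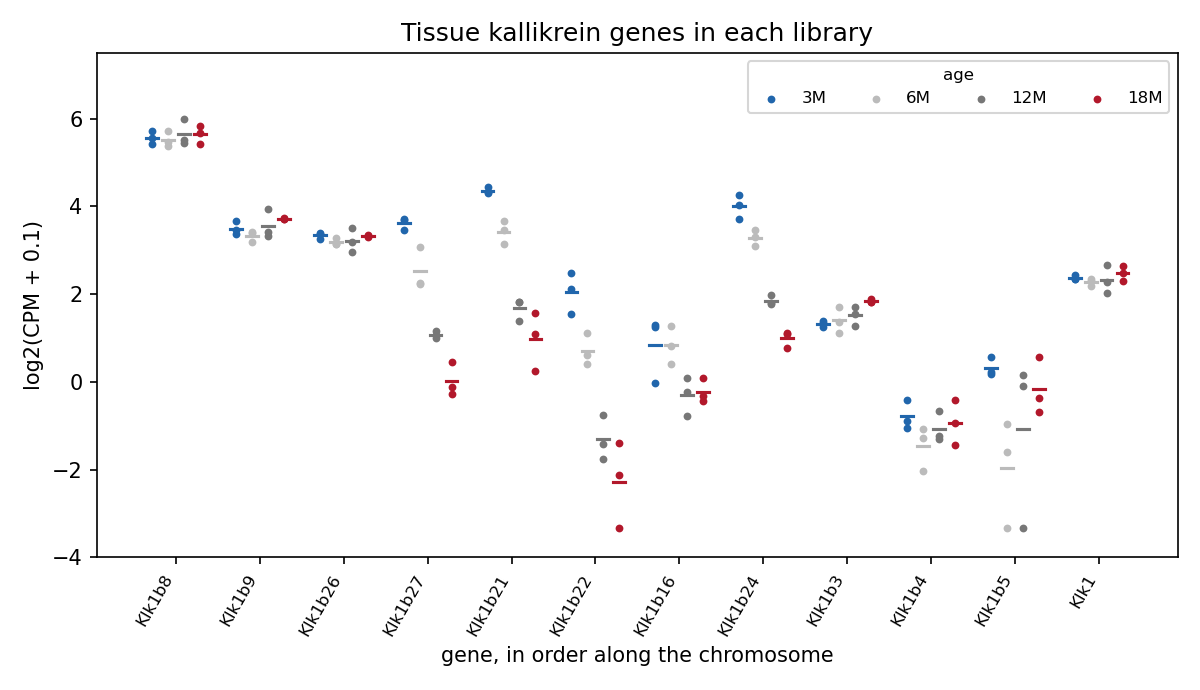
The 12 tested tissue kallikrein genes stand in their order along chromosome 7, with log2(CPM + 0.1) on the vertical axis, 1 point per library, a short line at the mean of each age, and the 6M and 12M libraries in grey. In Klk1b27, Klk1b21, Klk1b22 and Klk1b24 all 3M points lie above all 18M points, and in Klk1b16, within the same run, the ages overlap.

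Cyp17a1, which turns progestogens into androgens, was the steroidogenic gene that fell (chromosome 19, 46667165 to 46673000, mm10). It was at 148, 196 and 133 CPM at 3M and at 67.1, 54.5 and 55.3 CPM at 18M. All 3 young mice lay above all 3 old mice, and the log2 fold change was −1.43 ± 0.15 (adjusted p = 0.0351), a level of 37.1% of that at 3M. The call was lost without the first mouse of 3M (adjusted p = 0.0813), the second of 18M (0.0979) or the third of 18M (0.133). It was also lost with a robust estimate of the dispersion (0.126) and with exact matches only (0.139).

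The rest of the pathway is given in the order of the steps. Star was at 34.2, 55.0 and 30.8 CPM at 3M and at 23.1, 20.0 and 25.3 CPM at 18M (log2 fold change −0.81 ± 0.21, adjusted p = 0.284). The ages did not overlap, and the second mouse of 3M stood above the others. Tspo, a protein of the outer mitochondrial membrane, was at 4.25 ± 0.194 and 3.92 ± 0.5003 CPM. Cyp11a1 was at 63.8, 86.5 and 62.7 CPM at 3M and at 35.0, 21.4 and 17.5 CPM at 18M, a log2 fold change of −1.53 ± 0.26 that was as large as that of Cyp17a1 and did not pass (adjusted p = 0.183). Of the proteins that pass electrons to it, Fdxr had a log2 fold change of −0.19 ± 0.06 without overlap, and Fdx1 had 0.24 ± 0.22 with overlap.

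Mouse Leydig cells carry 2 enzymes for the Hsd3b step, and their values went apart. Hsd3b6, the form of adult Leydig cells, was at 81.3, 92.8 and 70.3 CPM at 3M and at 52.5, 38.2 and 37.9 CPM at 18M (log2 fold change −0.93 ± 0.15, adjusted p = 0.172). Hsd3b1 was at 33.2, 39.5 and 33.1 CPM at 3M and at 56.1, 43.5 and 29.5 CPM at 18M (0.29 ± 0.21, adjusted p = 0.565). The first gene showed no overlap between the ages and the second did. The difference between these genes was not tested, and since they are similar in sequence their reads may be divided between them with error.

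Hsd17b3, which makes testosterone from androstenedione, was at 15.1, 15.7 and 15.9 CPM at 3M and at 11.7, 9.67 and 6.58 CPM at 18M (log2 fold change −0.74 ± 0.19, adjusted p = 0.283). All 3 old mice lay below all 3 young mice, with a wider spread at 18M. Srd5a1, which reduces testosterone to dihydrotestosterone, had −0.18 ± 0.08. Of the redox partners of Cyp17a1, Por had −0.14 ± 0.06 and Cyb5a had −0.17 ± 0.08. Hsd11b1, an enzyme of glucocorticoid metabolism, was at 0.220 to 0.391 CPM.

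Over the 13 steroidogenic genes, 1 passed the test and 10 were lower at 18M (50.4% of all genes tested were), with a median log2 fold change of −0.18. In 8 of the 13 the libraries did not overlap and were lower at 18M, where 10.8% of all genes tested were, and 6 of the 13 had an unadjusted p of 0.05 or less and were lower, where 7.26% of all genes tested were. DESeq2 called 4 of the 13, namely Cyp11a1, Cyp17a1, Hsd17b3 and Hsd3b6, each lower (0.976% of all genes were). The summed level of the 13 genes was 450 to 599 CPM at 3M and 286 to 343 CPM at 18M, 60.1% of the 3M mean. At 6M it was 457 to 545 CPM and at 12M 355 to 364 CPM, so that the 12M range lay between those of 3M and 18M without touching either. Promoter windows were matched for 9 of the 13 genes, and not for Star, Tspo, Cyb5a or the called gene Cyp17a1. AGAACA occurred in the window of Hsd3b6 and in no other of the 9, and AAGGTCA in none of them. This says only that these letters are not in these windows.

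**Figure D3:**
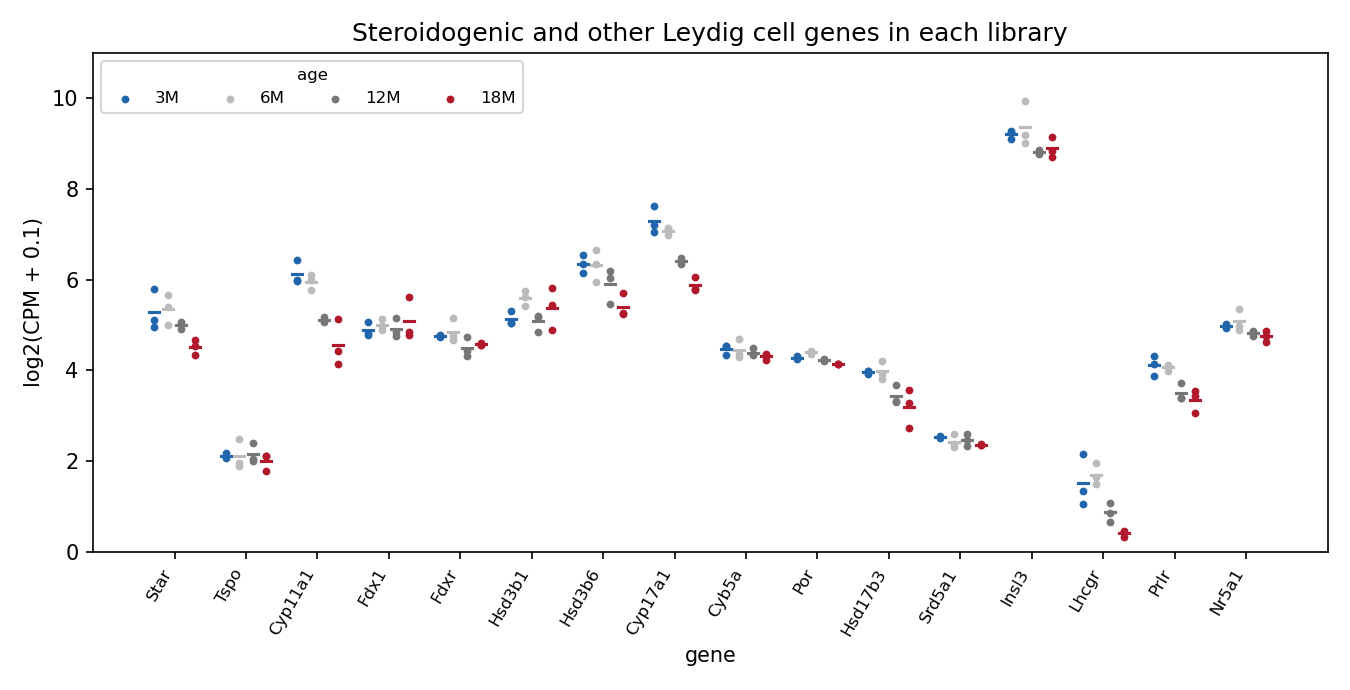
Steroidogenic genes are followed by Insl3, Lhcgr, Prlr and Nr5a1, with log2(CPM + 0.1) on the vertical axis, 1 point per library, a short line at the mean of each age, and the 6M and 12M libraries in grey. Cyp11a1, Hsd3b6, Cyp17a1 and Hsd17b3 lie lower at 18M than at 3M, and Fdx1 and Hsd3b1 do not.

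Markers of Leydig cells that are not steroidogenic enzymes were examined with them, and the 4 described first were chosen after their values were seen. Insl3, a peptide hormone and the most abundant of the list, was at 554, 617 and 610 CPM at 3M and at 566, 456 and 419 CPM at 18M, ranges that overlap (log2 fold change −0.31 ± 0.11, adjusted p = 0.314). Lhcgr, the receptor for luteinizing hormone, was at 2.43, 4.39 and 1.97 CPM at 3M and at 1.25, 1.27 and 1.15 CPM at 18M (−1.26 ± 0.30, adjusted p = 0.274). Prlr, the prolactin receptor, had −0.77 ± 0.16 (adjusted p = 0.247) and Nr5a1, a transcription factor of steroidogenic cells, had −0.22 ± 0.07 (adjusted p = 0.301), both without overlap. The remaining markers of this kind did not fall alike. In DESeq2, Sult1e1 was higher at 18M (0.37 ± 0.21, adjusted p = 0.443) and Fabp3 had −0.11 ± 0.15 (adjusted p = 0.825). The 11 Leydig cell markers, some of which are also on the steroidogenic list, had a median of −0.77 (−0.51 without the second mouse of 3M), and 1 of them, Cyp17a1, passed. Their log2 fold changes were therefore unequal in size, from −1.53 to 0.37. The summed level of the list was 1056 to 1222 CPM at 3M and 692 to 944 CPM at 18M. In RNA from a whole testis, fewer Leydig cells and less RNA of these genes per Leydig cell cannot be told apart.

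Stromal markers had the next lowest median among the cell type lists, −0.70. Of the 9 genes 7 were lower and 2 higher (50.4% and 49.6% of all genes tested were). Of 9 fibroblast and stromal genes none passed in edgeR, 5 were lower with an unadjusted p of 0.05 or less (7.26% of all genes tested were), and DESeq2 called 4 (Col1a1, Col1a2, Col3a1 and Pdgfra), each lower (0.976% of all genes were). Col1a2, a chain of type I collagen, was at 15.4, 21.4 and 14.9 CPM at 3M and at 9.60, 6.85 and 6.98 CPM at 18M (−1.14 ± 0.19, adjusted p = 0.172). Dcn, a matrix proteoglycan of fibroblasts, was at 20.2 ± 4.06 and 16.6 ± 3.13 CPM with overlapping ages. Among the 72 tested collagens, laminins and matrix enzymes, 17 were lower and 4 higher (against 7.26% and 6.36% of all genes tested) at an unadjusted p of 0.05 or less, and none passed in edgeR. DESeq2 called 8 of these genes, each lower (0.976% of all genes were). Col1a1, Col1a2 and Col3a1 are among these calls and among those of the stromal list, so the counts of the lists are not separate. Col19a1, the most abundant gene of the collagen list, was at 2381 ± 593 and 1975 ± 455 CPM. The 5 tested adipocyte markers had a median of −0.38 (−0.63 to −0.20 with 1 library left out), and none passed in edgeR. Of these markers 4 were lower (50.4% of all genes tested were), 1 of them at an unadjusted p of 0.05 or less (7.26% were). Their most abundant member, Adipoq, an adipocyte hormone gene, was at 9.04 ± 1.04 and 10.03 ± 0.418 CPM.

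The other somatic cell types lay closer to the median of all genes. The 16 Sertoli cell markers had a median log2 fold change of 0.06, and Cst9, a cystatin gene and one of the most abundant in that list, was at 82.7 ± 2.80 and 95.5 ± 4.11 CPM (adjusted p = 0.283). The 8 peritubular myoid markers, which are contractile genes of the tubule wall, had −0.13, and the 11 endothelial markers had −0.06. The 13 macrophage markers had −0.12. Their sum of 367 to 419 CPM at 3M and 408 to 434 CPM at 18M came mostly from Aif1 (310 ± 28.6 and 351 ± 22.1 CPM), and without that gene it was 74.4 to 81.2 and 64.7 to 82.2 CPM. The 11 lymphocyte and plasma cell markers were at low levels, with sums of 12.9 to 13.9 CPM at 3M and 14.5 to 16.7 CPM at 18M and a median of 0.07. None of the genes in these 5 lists passed in edgeR or in DESeq2. At an unadjusted p of 0.05 or less, 1 Sertoli and 1 lymphocyte gene were higher and 1 endothelial gene was lower. Of all genes tested, 6.36% were higher and 7.26% lower at that p. With 1 library left out the medians ran from 0.04 to 0.09 for Sertoli cells, −0.25 to −0.07 for myoid cells, −0.19 to 0.01 for endothelial cells, −0.32 to −0.04 for macrophages and 0.02 to 0.18 for lymphocytes.

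Germ cell markers moved by small amounts. The 14 spermatogonial markers had a median log2 fold change of −0.02 and the 22 spermatocyte markers 0.00. Of the 16 round spermatid markers 14 were higher at 18M (49.6% of all genes tested were), with a median of 0.16, and all 15 elongating spermatid markers were higher, with a median of 0.13. Transcripts of both lists are short, with median lengths of 1471 and 1031 nt against 2764 nt over all genes tested. The fifth of all genes tested with the shortest transcripts had a median of 0.09, and the part of length in the spermatid values was not tested. At an unadjusted p of 0.05 or less, 6 of the 16 and 4 of the 15 were higher, where 6.36% of all genes tested were, and none passed in edgeR. DESeq2 called 3 of the round spermatid genes, each higher (0.625% of all genes were), and none of the elongating ones. Prm2 and Tnp2, the most abundant of the elongating list, had 0.13 ± 0.09 and 0.14 ± 0.10, with overlapping ages. Of 46 axonemal dynein and CFAP genes, which build the sperm tail, 31 were lower (50.4% of all genes tested were) and 13 of these had an unadjusted p of 0.05 or less (7.26% of all genes were lower so), with a median of −0.06 and no call in edgeR or DESeq2. Without the second mouse of 3M the round spermatid median was 0.07, without the third of 18M the elongating one was 0.08, and without the third of 3M the dynein one was −0.04.

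The ribosomal and respiratory lists, whose transcripts are short, were made up mostly of genes with higher values at 18M. Of 76 cytosolic ribosomal protein genes 68 were higher at 18M, where 49.6% of all genes tested were (median log2 fold change 0.10, median transcript length 740 nt), and of 83 oxidative phosphorylation genes 67 were higher (0.07, 727 nt). None of the ribosomal protein genes passed in edgeR or DESeq2, and 10 had an unadjusted p of 0.05 or less, all higher (6.36% of all genes were). Of the oxidative phosphorylation genes none passed in edgeR, and DESeq2 called 1, Atp5g1, as higher (0.625% of all genes were). At an unadjusted p of 0.05 or less 12 of them were higher and 3 lower, against 6.36% and 7.26% of all genes tested. Without the second mouse of 3M the medians of the lists were 0.06 and 0.03. Over all genes tested, cut into 5 equal classes by transcript length, the class with the shortest had a median of 0.09 and that with the longest −0.08. In each library the median deviation from the gene means in the longest class minus that in the shortest was 0.02, 0.16 and 0.06 at 3M and −0.02, −0.07 and −0.14 at 18M on the log2 scale. The 3M values thus lay above the 18M values, by little between the first libraries of the ages (0.02 and −0.02). This difference was not tested. Median lengths were 4205 nt in the stromal list, 4215 nt in cholesterol uptake, storage and transport, 5220 nt in the collagen list, 3773 nt in the dynein list, 1841 nt in the Leydig cell list and 2764 nt over all genes tested. They were 1471 nt in the round and 1031 nt in the elongating spermatid list. The part of length in the values of any list was not tested.

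**Figure D4:**
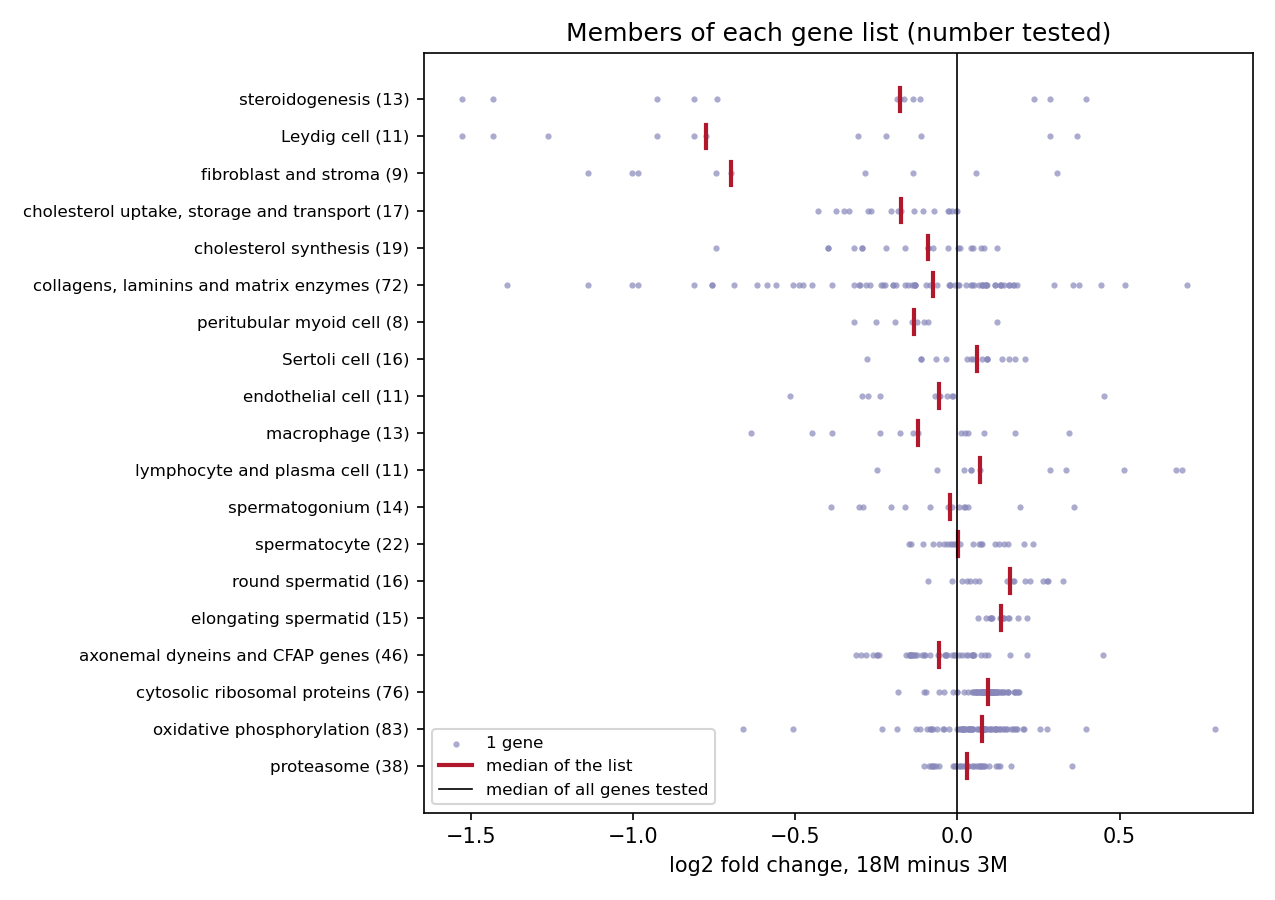
Members of 19 gene lists are plotted by their log2 fold change (18M minus 3M), with 1 point per tested gene, a red line at the median of the list and a black line at the median of all genes tested. The Leydig cell and fibroblast lists have medians of −0.77 and −0.70, and those of the others run from −0.18 to 0.16.

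Fetub, the gene of a secreted protease inhibitor of the fetuin family (chromosome 16, 22918382 to 22939768), was at 0.763, 0.972 and 0.420 CPM at 3M and at 7.81, 8.46 and 5.15 CPM at 18M. It was higher in all old mice, with a log2 fold change of 3.31 ± 0.31 (adjusted p = 0.0162), and lost the call without the first mouse of 3M (0.0813), with limma voom (0.0793) and with exact matches only (0.113). Akr1c12, an aldo-keto reductase (chromosome 13, 4268172 to 4279399), was at 0.863, 1.19 and 1.02 CPM at 3M and at 3.33, 3.16 and 3.42 CPM at 18M (1.68 ± 0.15, adjusted p = 0.0127). It was the 1 called gene among 17 tested prostaglandin and aldo-keto reductase genes, whose median was −0.05. Its call was lost without the third mouse of 3M (0.0520) or the third of 18M (0.0635), and with exact matches only (0.0538).

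Xpnpep3, a mitochondrial aminopeptidase gene (chromosome 15, 81400138 to 81457482), was at 24.3, 26.7 and 24.5 CPM at 3M and at 13.4, 13.2 and 13.5 CPM at 18M (−0.91 ± 0.07, adjusted p = 0.00582). Its exons overlap those of St13 on the other strand, and without strand information the reads of the 2 genes cannot be told apart there. Its call was lost with all 12 libraries in the fit (0.258), and with exact matches only its log2 fold change was −3.48 (called, 0.0173). Ubl5, a ubiquitin-like protein gene (chromosome 9, 20643318 to 20646790), was at 70.4, 69.0 and 66.8 CPM at 3M and at 37.0, 42.5 and 41.3 CPM at 18M (−0.77 ± 0.07, adjusted p = 0.0109). Its exons overlap those of Fbxl12 on the other strand, a gene at a mean of 27.0 CPM at 3M and 27.9 CPM at 18M. Here too the reads of the overlap cannot be told apart. Summed as FPKM, which divides by transcript length, Ubl5 was at 36.9 ± 2.61 and 29.9 ± 3.40, a level of 80.9% against 58.6% in CPM. Ankrd10 (chromosome 8, 11611581 to 11635757) was at 72.6, 80.0 and 66.5 CPM at 3M and at 44.1, 37.8 and 35.9 CPM at 18M (−0.90 ± 0.10, adjusted p = 0.0373). The ages stood apart in each of these genes. With only exact matches to reference transcripts counted, Ankrd10 had −0.20 and Ubl5 −3.62, neither called, and Ankrd10 lost its call without the first or second mouse of 3M (0.129 and 0.104) or the second or the third of 18M (0.109 and 0.117).

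Lrch4 and Gm20605 were called in opposite directions and overlap in their exons on the same strand of chromosome 5, from 137629123 to 137642896. Exons of both also overlap those of Fbxo24 on the other strand, a gene at a mean of 192 CPM at 3M and 195 CPM at 18M. Lrch4 was at 173, 160 and 185 CPM at 3M and at 3.85, 6.69 and 1.91 CPM at 18M (−5.40 ± 0.41, adjusted p = 0.00582). Gm20605 was at 21.4, 38.8 and 25.6 CPM at 3M and at 202, 203 and 195 CPM at 18M (2.81 ± 0.20, adjusted p = 0.00582). The fall of the one was matched by the rise of the other: their sum was 195, 199 and 211 CPM at 3M and 206, 210 and 197 CPM at 18M. Fitted as 1 gene, an alternative chosen after the data were seen, they had a log2 fold change of 0.02 (adjusted p = 0.892). At 6M, 2 libraries had Lrch4 at 2.05 and 5.92 CPM and 1 had it at 166 CPM, and at 12M all 3 had it between 167 and 186 CPM. Arf6, a small GTPase gene of membrane traffic (chromosome 12, 69372150 to 69375980), rose from 0.602, 0.440 and 0.383 CPM to 7.18, 4.49 and 5.46 CPM (3.59 ± 0.24, adjusted p = 0.00516). A single-exon transcript of the same locus, outside the rule for genes, held 34.2 to 59.6 CPM, and with it included Arf6 had 0.12 (adjusted p = 0.799). With all 12 libraries in the fit Lrch4, Gm20605 and Arf6 were not called (adjusted p = 0.183, 0.0768 and 0.256), and with a robust dispersion Lrch4 and Gm20605 were not (0.132 and 0.104).

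**Figure D5:**
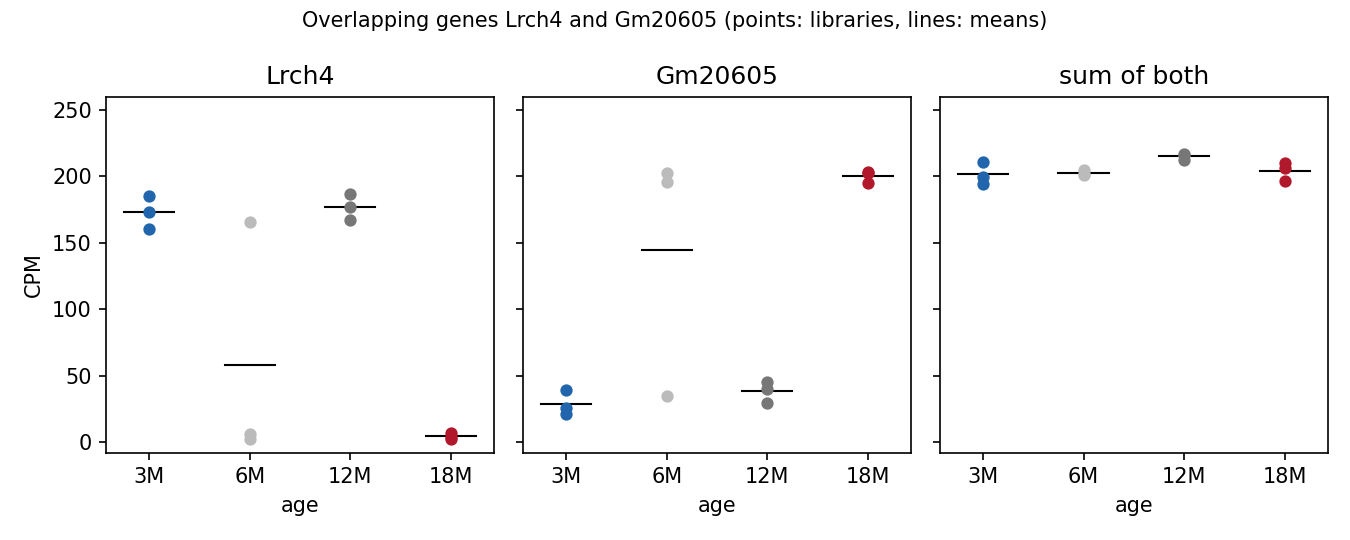
The CPM of Lrch4, of Gm20605 and of their sum is plotted for the 12 libraries by age, with 1 point per library and a line at the mean. Lrch4 is high at 3M, at 12M and in 1 library of 6M, Gm20605 is high in the remaining libraries, and the sum lies level.

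The remaining metabolic and immune lists held no called gene in edgeR. Cholesterol synthesis (19 tested) had a median log2 fold change of −0.09, with its most abundant member Fdft1, a squalene synthase, at 447 ± 17.0 and 461 ± 11.6 CPM. In cholesterol uptake, storage and transport, 17 of 17 tested genes were lower (50.4% of all genes tested were), with a median of −0.17. At an unadjusted p of 0.05 or less 2 were lower, where 7.26% of all genes tested were. With 1 library left out that median ran from −0.21 to −0.10, the last without the first or the second mouse of 3M. Among 59 genes of xenobiotic metabolism the most abundant was Ephx1, an epoxide hydrolase, at 65.6, 64.9 and 60.3 CPM at 3M and 38.7, 30.0 and 20.9 CPM at 18M (−1.09 ± 0.20, adjusted p = 0.212). Its ages did not overlap and DESeq2 called it. The 46 antioxidant and glutathione genes had a median of 0.01, and Gpx4, a selenoprotein of sperm, was at 925 ± 38.5 and 1030 ± 42.2 CPM. The 20 chemokines had 0.15, the 24 genes of antigen presentation 0.08, the 18 complement genes 0.01, the 25 interferon-stimulated genes −0.19 and the 18 senescence and secreted inflammatory genes −0.02. Over all 38 lists, 34 held no called member in edgeR, and DESeq2 called at least 1 gene in 14 of these 34. At an unadjusted p of 0.05 or less the 34 lists held 69 higher and 77 lower entries, a gene on several lists being counted on each. Of all genes tested, 6.36% were higher and 7.26% lower at that p.

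The 6M and 12M libraries, which had no part in the fit, give levels of the called genes at the ages between. In 10 of the 12 called genes both the 6M and the 12M mean lay between the 3M and the 18M mean, as in 20.9% of all genes tested, and in 7 the 4 means followed the order of age, as in 14.3%. The called genes were chosen by their gap between 3M and 18M, so these counts are a description. Klk1b27 went from 12.3 at 3M to 5.89 at 6M, 2.004 at 12M and 0.939 CPM at 18M. Cyp17a1 went from 159 to 135, 85.3 and 59.0 CPM, and Fetub from 0.718 to 2.82, 5.36 and 7.14 CPM. The exceptions to the first count were Lrch4 and Ubl5, whose 6M mean of 39.0 CPM was already below that of 18M. Some of these means stand for unlike libraries and not for a level between. Arf6 was at 0.373, 5.39 and 7.16 CPM at 6M and at 9.18, 0.430 and 3.21 CPM at 12M. Xpnpep3 was at 16.9, 26.1 and 23.7 CPM at 6M and at 25.3, 26.4 and 10.9 CPM at 12M. Ankrd10 was at 45.7, 68.7 and 67.7 CPM at 6M and at 77.3, 49.4 and 67.7 CPM at 12M. Lrch4 and Gm20605 also differed between the libraries of 6M.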

How the data were processed

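Each library was assigned to its age and number by its title. The submitters' processing notes name HISAT2 and StringTie, the deposited assemblies give StringTie version 1.3.3b, and the build is mm10. The deposited estimated counts were made by the authors as coverage times transcript length over a read length of 101 bases, rounded up to whole numbers, and were used as they stand. The deposited FPKM values, which the authors scaled by length and depth, were used as levels only. Multi-mapped and overlapping reads were divided by the authors' quantification, which affects near-identical and overlapping genes. No column of the table held a comparison by the authors.

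Counts of 60321 transcript rows (of 71967) were summed per gene. Genes were filtered with filterByExpr, scaled by TMM and tested with the quasi-likelihood test of edgeR 4.0.16 in R 4.3.3 on 3 against 3 libraries, with Benjamini-Hochberg adjustment over 18068 genes and calls at 0.05. The script was tested on simulated data in which 200 genes were changed. It recovered 31% of the changes of 1.5-fold, 70.7% of those of 2-fold and 93.3% of those of 4-fold. With these came 11, 22 and 13 false calls, so that small changes were often missed and some calls were false. In each of these simulations the false share of the calls was above the 0.05 set for the adjusted p. Alternatives were DESeq2 1.42.0, limma 3.58.1 (voom, added after seeing the data, as were robust dispersion and bias-adjusted deviances), other scaling, filters, row classes, all 12 libraries, a block for the replicate number and leaving out each library.

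The comparison and the 38 gene lists (24 of pathways, 14 of cell types) were chosen with earlier results of these data known. Named genes were the called genes with a RefSeq mRNA, a mean of at least 1 CPM and no overlap between the ages (up to 12 in each direction), all tested steroidogenic and kallikrein genes, and of every other list up to 4 called members or the 2 with the highest mean CPM. Genes outside this rule are said to be so, or stand only as names of DESeq2 calls. The replicate numbers did not pair the libraries: deviations of same-numbered libraries correlated at −0.040 to −0.0039.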

Additional observations from a re-analysis of the deposited data

How the results depend on the processing

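The 12 calls (4 higher, 8 lower) were all made again with DESeq2's size factors, without the filter and with DESeq2. Other settings moved the number called beyond 1.5 times: 22 (8 higher, 14 lower) with all 12 libraries in the fit, of which 7 were among the 12; 19 with exact matches only (7 higher), sharing 5; and 264 (103 higher, 161 lower) with DESeq2. Without adjustment there were 2461 (1149 higher, 1312 lower), and with a log2 fold change of at least 1 there were 5 lower. Leaving out 1 library gave 15 to 25 calls, 6 to 16 higher and 9 to 18 lower, the most higher without the second mouse of 18M and the most lower without the first. Called steroidogenic and Leydig cell genes numbered 2 in each list with all 12 libraries, 4 and 5 with DESeq2, 0 with exact matches or robust dispersion, and 0 to 3 when 1 library was left out: 0 without the first mouse of 3M or the second or the third of 18M, and 3 without the first of 18M. Called kallikreins stayed within 2 to 4 in every setting.

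The replicate numbers were shared by the labels only. With the replicate block 7 genes were called (3 higher, 4 lower), all among the 12 (Cyp17a1, Akr1c12, Xpnpep3, Ubl5 and Ankrd10 were not), with 0 steroidogenic and 0 Leydig cell genes.

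Among reversals, Lrch4 had a log2 fold change of 0.0186 when summed with Gm20605, and the piRNA pathway a median of 0.0676 with exact matches only. With 1 library left out, 6 list medians took the other sign in at least 1 setting. The senescence list ran from −0.0378 without the first mouse of 18M to 0.0988 without the second of 3M, antigen presentation from −0.077 without the first mouse of 18M to 0.131 without the second, endothelial cells from −0.193 to 0.0052, red blood cells from −0.222 to 0.099, complement from −0.048 to 0.0542, and antioxidant genes from −0.0014 to 0.0258. The spermatocyte median was −0.0068 with library size only. The causes were not tested. Genes near 0, such as Klk1b22 at 18M (0 to 0.282 CPM), rest on few reads, and their fold changes are uncertain.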

Other observations

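Several genes just outside the threshold, chosen after their values were seen, belong to no list described above. Igf2, a fetal growth factor, was at 5.52, 5.83 and 5.55 CPM at 3M and at 17.2, 13.8 and 11.1 CPM at 18M (log2 fold change 1.31 ± 0.15, adjusted p = 0.0584 in edgeR). Aqp2, a water channel, was at 4.54, 5.85 and 2.94 CPM at 3M and at 1.04, 0.846 and 1.12 CPM at 18M (−2.14 ± 0.27, adjusted p = 0.0745). Itih2, a hyaluronan-binding inhibitor chain, had −1.57 ± 0.21 (adjusted p = 0.0815), and Sag, the visual arrestin gene, had 0.69 ± 0.09 (adjusted p = 0.0815). In each of these genes the libraries of the ages did not overlap, as in 20.5% of all genes tested.

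Among retinoic acid genes, Cyp26b1, which degrades retinoic acid, was at 22.2, 26.2 and 23.1 CPM at 3M and at 15.8, 14.1 and 16.6 CPM at 18M (−0.62 ± 0.09, adjusted p = 0.159). Prdx6, a peroxiredoxin, was at 52.2, 53.5 and 54.6 CPM at 3M and at 72.1, 97.9 and 100.8 CPM at 18M (0.76 ± 0.12, adjusted p = 0.170). DESeq2 called both, and both were chosen after their values were seen.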
